A study of Mus musculus with 3647 samples.

Results

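The beta subunit genes of the sodium-potassium pump, Atp1b1, Atp1b2 and Atp1b3, are described here across nuclei and cells of the mouse brain. They were chosen by symbol and are 3 of the 23420 genes in the tables. The study profiled single nuclei and patched cells around the thalamic reticular nucleus (TRN), a thin sheet of inhibitory neurons that surrounds the thalamus, with Smart-seq2, a full-length RNA-seq method for single cells sorted into plates. Each labelled sample is 1 nucleus or 1 cell, and 2653 of 3647 labelled samples had values. Patch-seq, in which the content of a recorded cell is drawn into the pipette and sequenced, gave 95 TRN cells. Of these, 34 share a name start, 7 share another, and the remaining 54 have unlike names. The 3 sets are called name batches below, although the 54 cells are only those left over. Nuclei from tissue adjacent to the TRN, described as thalamus and globus pallidus, numbered 240 on 4 plates. TRN nuclei sorted on the neuronal nuclear protein NeuN (NeuN+) made up 28.4% of the samples with values, on 8 plates, and TRN nuclei without that selection (unselected) 26.2%, on 13 plates. Nuclei sorted on green fluorescent protein (GFP+), described by the submitters as Pvalb+, came from hippocampus (16.6% of the samples with values, 7 plates), M2 cortex (6.33%, 3 plates), somatosensory cortex (5.62%, 2 plates) and striatum (2.68%, 1 plate). A further 43 hippocampal nuclei on 1 plate carried no sort label. Strain, age, genotype, the driver of the GFP and the animal behind each plate are not given in the sources used here.

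The pump is built from a catalytic alpha subunit and a glycosylated beta subunit, and it moves sodium out of the cell and potassium into it at the expense of ATP. The beta subunit is needed for the enzyme to fold and reach the plasma membrane, and its isoform tunes the affinity for potassium. Atp1b1 encodes beta1, the widely used isoform. Atp1b2 encodes beta2, also known as the adhesion molecule on glia. Atp1b3 encodes beta3. TRN neurons fire bursts and fast trains that admit sodium, and astrocytes clear the potassium that neurons release, so both cell types depend on the pump.

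All 3 genes are protein coding and lie on the minus strand of GRCm38. Atp1b1 (ENSMUSG00000026576.12) spans chr1:164437109-164458355, Atp1b2 (ENSMUSG00000041329.13) spans chr11:69599736-69605942 and Atp1b3 (ENSMUSG00000032412.8) spans chr9:96332655-96364442. The 300-base promoter windows that RefSeq (GRCm38.p6) gives for Atp1b1, at chr1:164458306-164458605, and for the first of 2 starts of Atp1b3, at chr9:96364382-96364681, are shown because these genes lead in different cell classes below. A window for Atp1b2 was not used here. They are written 5′ to 3′ on the minus strand, and capitals mark CCAAT or GGGCGG on either strand.
Atp1b1: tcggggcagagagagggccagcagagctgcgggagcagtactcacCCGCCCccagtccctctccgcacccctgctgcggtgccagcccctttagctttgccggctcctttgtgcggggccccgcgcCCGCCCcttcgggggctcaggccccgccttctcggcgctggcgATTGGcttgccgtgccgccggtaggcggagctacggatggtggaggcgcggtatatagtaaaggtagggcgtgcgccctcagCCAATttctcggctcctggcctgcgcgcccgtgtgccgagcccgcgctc
Atp1b3: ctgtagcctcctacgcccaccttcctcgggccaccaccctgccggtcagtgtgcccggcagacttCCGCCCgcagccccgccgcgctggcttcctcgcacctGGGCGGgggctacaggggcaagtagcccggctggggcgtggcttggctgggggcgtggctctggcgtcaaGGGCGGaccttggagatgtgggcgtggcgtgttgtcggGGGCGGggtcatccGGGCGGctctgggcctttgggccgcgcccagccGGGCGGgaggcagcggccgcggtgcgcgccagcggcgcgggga
Both windows are rich in G and C, at 71% for Atp1b1 and 76% for Atp1b3, against a median of 52.7% over 32851 promoter windows of the same length. The Atp1b1 window holds 2 matches to CCAAT, read as ATTGG 81 bases before the start and as CCAAT 2 bases after it, and 2 matches to GGGCGG. The Atp1b3 window shown holds 6 matches to GGGCGG and no CCAAT, and the window of its other start, at chr9:96363666-96363965, holds neither. None of these windows holds TATAA on either strand. Only these exact letters were searched, so the tatatag of the Atp1b1 window was not counted. None of the 3 motifs overlapped another. CCAAT occurred in 37.4%, GGGCGG in 35.7% and TATAA in 24.9% of all promoter windows. A match is a description of letters, not of binding.

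Values are TPM, a measure of transcript abundance that is scaled to transcript length and to a common total per nucleus, so levels can be set side by side between genes as well as between nuclei. Read totals were not in the tables, so the number of detected genes stands in for depth: the group medians ran from 2426 genes in unselected TRN nuclei to 6654 in Patch-seq cells, and the highest single sample had 13164. Nuclei were grouped by clustering and named from marker genes. In the TRN plates this gave 810 GABAergic neuron-like, 81 astrocyte-like and 300 oligodendrocyte-like nuclei, thalamic glutamatergic neuron-like nuclei that made up 13.5% of the TRN nuclei, and 55 unnamed nuclei. The classes are called by those names from here on. Gad1, which makes GABA, was detected in 98.4% of the GABAergic nuclei, the glutamate transporter Slc17a6 in 97.96% of the glutamatergic nuclei, the gap junction gene Gja1 in 98.8% of the astrocytes and the myelin gene Mog in 97.7% of the oligodendrocytes. Slc17a6 was at 0 in all 81 astrocytes, which allows a share of up to 3.70% of nuclei. Transcripts of other classes were also found at low levels: Gad2, which also makes GABA, was detected in 41.3% of oligodendrocytes. All 3 pump genes were among the 2000 variable genes used for clustering. Because the labels name no animal, each group counts as 1 sample and no difference is tested. Ranges and SDs over plates with at least 5 nuclei describe the spread, and they may be technical. Log2 ratios below use means over nuclei, so they can lie off the centre of the plate values. Where both sides lie on the same plates, the SD is that of the log2 ratios by plate. For sorts, tissues and Patch-seq, it is the root of the summed variances of the log2 plate means on each side.

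Atp1b1 was the leading beta subunit transcript of both neuron classes on the TRN plates, the thalamic glutamatergic and the GABAergic nuclei. In glutamatergic nuclei it averaged 2663 TPM (plate means 1876 to 3285, median 2811, 14 plates) and was detected in 99.5% of nuclei. In the GABAergic nuclei of both sorts it averaged 4142 TPM (3164 to 5350, median 4017, on the same 14 plates) and was detected in 99.6%. The glutamatergic mean was lower on each of the 14 plates, although the 2 ranges overlap across plates. The log2 ratio of mean TPM + 1 was -0.64 ± 0.21 (SD over 14 plates), short of the log2 ratio of 1 used here to count a gene as changed. Both glial classes were far lower. Astrocytes of the unselected plates averaged 185.05 TPM (plate means 0.337 to 818.5, median 118.8, 10 plates) with detection in 23.8%, and oligodendrocytes averaged 202.9 TPM (0.168 to 492.2, median 192.9, 12 plates) with detection in 24.7%. The GABAergic nuclei of those plates averaged 3804 TPM with detection in 99.6%. No glial plate reached the lowest GABAergic plate, at 1934 TPM. The log2 ratios were -4.35 ± 2.93 (SD, 10 plates) for astrocytes and -4.22 ± 3.11 (SD, 12 plates) for oligodendrocytes over GABAergic nuclei. Their medians over plates were -5.21 for astrocytes and -4.17 for oligodendrocytes.

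Atp1b2 was an astrocyte transcript with a second, lower level in neurons. Every one of the 80 astrocytes on unselected plates had it, at a mean of 4672 TPM (plate means 3499 to 6286, median 4473, 10 plates). GABAergic nuclei of those plates averaged 109.1 TPM with detection in 38.5%, and their highest plate mean was 255.2 TPM. Astrocytes were higher on 10 of 10 plates, with a log2 ratio of 5.41 ± 0.98 (SD, 10 plates). The astrocyte level of Atp1b2 was thus of the size of the neuronal level of Atp1b1. Glutamatergic nuclei averaged 242.8 TPM (46.5 to 417.5, median 239.3, 14 plates), against 95.1 TPM in GABAergic nuclei of both sorts (46.5 to 124.8, median 94.1, on the same plates). Detection separated these classes more widely, at 88.3% of glutamatergic and 38.6% of GABAergic nuclei, and the detected share was higher in glutamatergic nuclei on 14 of 14 plates. The mean was higher on 12 of the 14, and the log2 ratio was 1.34 ± 0.92 (SD, 14 plates). On the unselected plates alone it was 0.86, which ends the call. Oligodendrocytes had the least Atp1b2, at 24.1 TPM (0 to 70.1, median 10.1, 12 plates, 2 of them at 0) and 8.78% detection, against 109.1 TPM and 38.5% in GABAergic nuclei. They were lower on 12 of 12 plates (log2 ratio -2.13 ± 2.35, SD, with a median of -3.22 over plates), although the ranges overlap. Among nuclei with at least 3000 detected genes, which left 7 oligodendrocytes, the direction turned (log2 ratio 0.95).

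Atp1b3 was the beta subunit transcript of oligodendrocytes. It averaged 1029.7 TPM there (plate means 572.8 to 1951, median 1003.3, 12 plates), against 282.4 TPM in GABAergic nuclei of the unselected plates (160.8 to 390, median 291.2, on the same plates). Oligodendrocytes were higher on 12 of 12 plates, the ranges do not overlap, and the log2 ratio was 1.86 ± 0.71 (SD, 12 plates). The share of nuclei with Atp1b3 did not follow the mean: it was 67.2% in oligodendrocytes and 69.9% in GABAergic nuclei, higher in oligodendrocytes on 6 plates and lower on 5. The glial nuclei also had fewer detected genes, with a median of 1989 in oligodendrocytes and 2160.5 in astrocytes, against 4267 in GABAergic nuclei of the same plates. The part of this gap in the glial shares and means was not tested. Glutamatergic nuclei, at 277.3 TPM (115.999 to 530), lay close to the 298.5 TPM of GABAergic nuclei of both sorts (160.8 to 357.1), with a log2 ratio of -0.11 ± 0.53 (SD, 14 plates) and 6 plates higher against 8 lower. Astrocytes averaged 107.2 TPM with detection in 12.5%, so few nuclei carry the mean. Their plate means ran from 0, on 3 of 10 plates, to 574.7 TPM with a median of 1.46 TPM, and they were lower than GABAergic nuclei on 9 of 10 plates. The log2 ratio over all nuclei was -1.39, against a median of -6.91 over the plates, with an SD of 3.40.

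**Figure D1:**
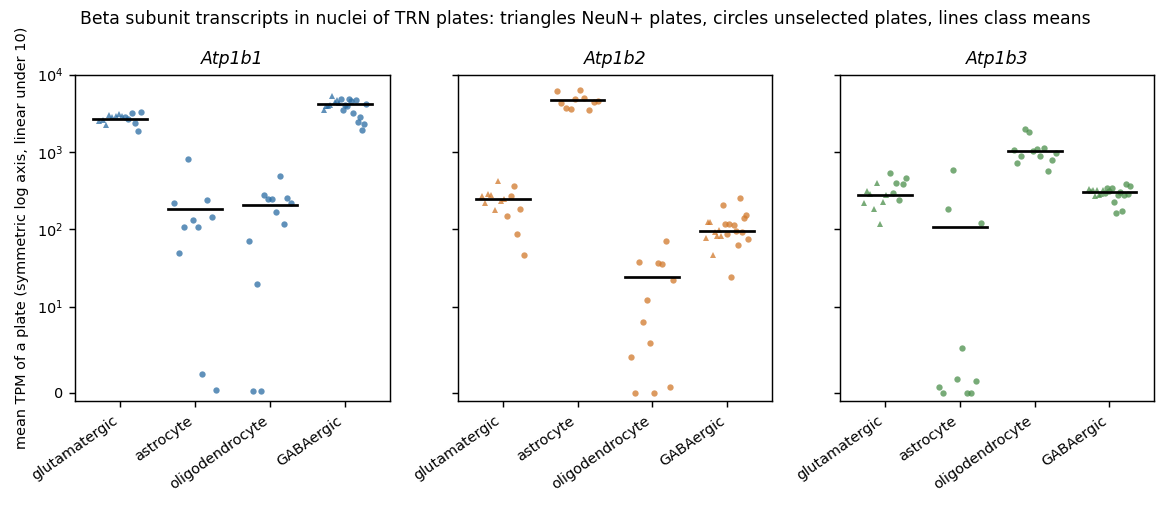
Mean TPM of Atp1b1, Atp1b2 and Atp1b3 per plate (points, symmetric log axis, linear under 10) in 4 classes of TRN nuclei, with triangles for NeuN+ plates, circles for unselected plates and lines for the mean over nuclei. Atp1b1 is high in both neuron classes, Atp1b2 sits between 3499 and 6286 TPM in astrocytes, and Atp1b3 sits between 572.8 and 1951 TPM in oligodendrocytes.

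Set against all genes, these counts read as follows. Between glutamatergic and GABAergic nuclei, 1 of the 3 genes was counted as higher and none as lower, where 11.4% of 15249 genes were higher and 12.3% lower. Between astrocytes and GABAergic nuclei 1 was higher and 2 lower, where 21.2% of 15131 genes were higher and 40.5% lower. Between oligodendrocytes and GABAergic nuclei 1 was higher and 2 lower, where 17.7% of 15255 genes were higher and 37.5% lower. The median log2 ratio over all genes was -0.49 for astrocytes and -0.50 for oligodendrocytes. The astrocyte marker sum, over 8 markers with none at 0 in any of these classes, averaged 20333 TPM in astrocytes (plates 16726 to 23277), 218.95 TPM in oligodendrocytes (14.98 to 518.2) and 558.4 TPM in GABAergic nuclei of the unselected plates (191.5 to 971.5). In glutamatergic nuclei it averaged 478.25 TPM (260.5 to 1009.95), against 521.4 TPM in GABAergic nuclei of both sorts. Most of these 521.4 TPM came from Aldoc (411.95 TPM, found in 64.2% of nuclei). Slc1a2 (58.9 TPM, 65.7%) and Slc4a4 (23.4 TPM, 34.3%) came next. The markers Slc1a3, Aqp4, Gja1, Gjb6 and Ntsr2 lay between 1.90 and 10.5 TPM, each in at most 2.47% of these nuclei. The 8 oligodendrocyte markers, none at 0, summed to a mean of 1084.96 TPM in glutamatergic nuclei (plates 10.3 to 4192), against 540.8 TPM in GABAergic nuclei (29.9 to 2204). The part of such transcripts in the neuronal values was not tested.

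As shares of the summed TPM of the 3 genes, Atp1b1 dominated both neuron classes and a different subunit dominated each glial class. Atp1b1 made up 83.7% of the sum in glutamatergic nuclei and 91.3% in GABAergic nuclei. Atp1b2 made up 94.1% in astrocytes (plates 71.8 to 99.96%), and Atp1b3 made up 81.9% in oligodendrocytes (68.03 to 99.97%). Within single nuclei the picture was alike. Atp1b2 was the highest of the 3 in 95.1% of the 81 astrocytes (95% exact binomial interval 87.8 to 98.6%, counting error only), and 67.9% of astrocytes had Atp1b2 alone. Atp1b3 was the highest in 80.1% of the oligodendrocytes with any of the 3, 47.3% of the 300 had it alone and 21.3% had none. Atp1b1 was the highest in 94.9% of the glutamatergic nuclei and 97.6% of the GABAergic nuclei with any. The neuron classes differed in what accompanied it: all 3 transcripts were found together in 65.3% of glutamatergic nuclei (58.2 to 71.9%) and 27.4% of GABAergic nuclei (24.4 to 30.6%), while Atp1b1 with Atp1b3 but no Atp1b2 was found in 9.69% of glutamatergic and 48.8% of GABAergic nuclei.

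**Figure D2:**
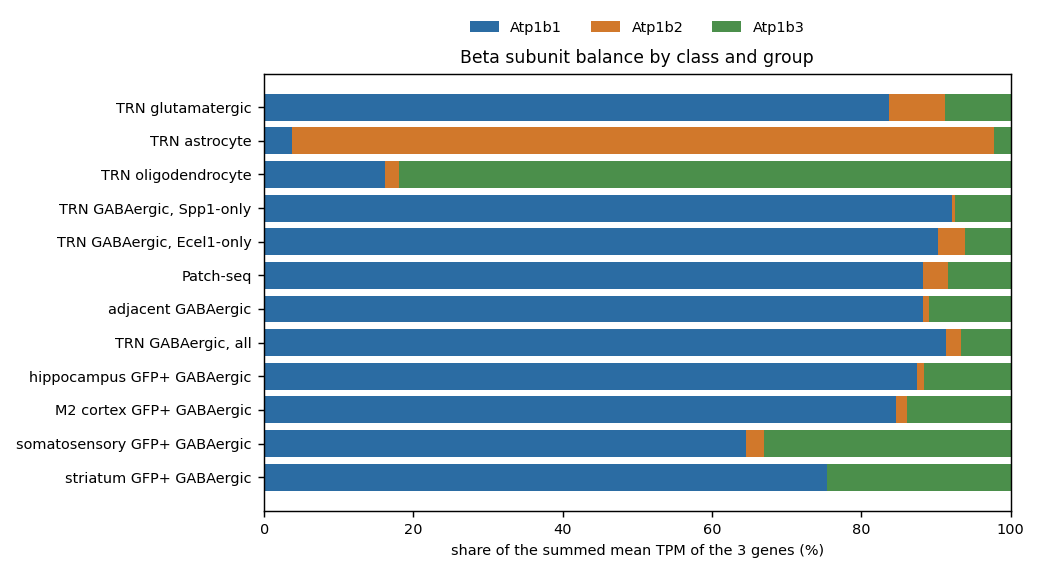
Share of each gene in the summed mean TPM of Atp1b1, Atp1b2 and Atp1b3 (percent, horizontal axis) for classes and groups (bars from top to bottom). Atp1b2 fills 94.1% of the astrocyte bar, Atp1b3 fills 81.9% of the oligodendrocyte bar and 33.1% of the somatosensory GABAergic bar, and Atp1b1 leads in all bars but those of the glial classes.

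Within the GABAergic nuclei of the TRN plates, Atp1b2 differed between nuclei with Spp1 and nuclei with Ecel1. Spp1 encodes osteopontin, a secreted phosphoprotein, and Ecel1 encodes a membrane peptidase related to endothelin-converting enzymes. Nuclei with Spp1 and no Ecel1 (Spp1-only) made up 33.2% of the 810 GABAergic nuclei, and nuclei with Ecel1 and no Spp1 (Ecel1-only) were equal in number. Atp1b2 averaged 20.7 TPM in Spp1-only nuclei (plate means 0 to 46.3, median 3.65, 15 plates, 5 of them at 0) and 156.7 TPM in Ecel1-only nuclei (62.01 to 213.04, median 160, on the same plates). It was detected in 11.2% of Spp1-only nuclei (95% exact binomial interval 7.65 to 15.5%) and 66.5% of Ecel1-only nuclei (60.6 to 72.2%). Spp1-only nuclei were lower on 15 of 15 plates, in mean and in detected share, and neither range overlaps the other. The log2 ratio over all nuclei was -2.86. By plate it ran from -7.74 to -1.26, with a median of -4.69 and an SD of 2.28 over 15 plates. On the 5 plates at 0 the ratio depends on the 1 TPM added to each mean. The other subunits differed less. Atp1b1 averaged 4488 TPM in Spp1-only nuclei (2732 to 5562) and 3951 TPM in Ecel1-only nuclei (3532 to 4950), with a log2 ratio of 0.18 ± 0.23 (SD). Atp1b3 averaged 360.8 TPM in Spp1-only nuclei and 268.98 TPM in Ecel1-only nuclei, with a log2 ratio of 0.42 ± 0.88 (SD), and was detected in 85.5% of Spp1-only and 69.1% of Ecel1-only nuclei. Of the 3 genes, 1 was counted as lower and none as higher, where 11% of 14989 genes were lower and 7.74% higher.

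**Figure D3:**
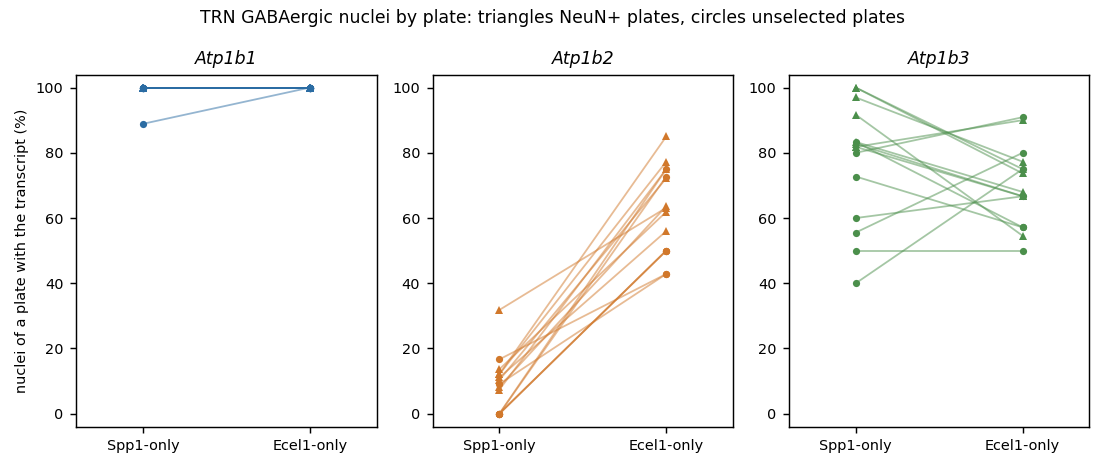
Percent of nuclei with each transcript, per plate (points joined by plate), in Spp1-only and Ecel1-only GABAergic nuclei of 15 TRN plates, with triangles for NeuN+ and circles for unselected plates. Each plate's Atp1b2 line lies lower on the Spp1-only side, with 0 to 31.8% on the Spp1-only side and 42.9 to 85% on the Ecel1-only side, while Atp1b1 stays near 100% on both sides.

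The combination of subunits changed accordingly. Atp1b1 with Atp1b3 and no Atp1b2 was found in 75.8% of Spp1-only nuclei and 23.05% of Ecel1-only nuclei, and all 3 together in 9.67% of Spp1-only and 46.1% of Ecel1-only nuclei. The difference was present in both sorts. On NeuN+ plates Atp1b2 averaged 22.97 TPM in Spp1-only nuclei and 156.6 TPM in Ecel1-only nuclei, and on unselected plates 13.009 TPM in 61 Spp1-only and 156.8 TPM in 98 Ecel1-only nuclei. The 37 nuclei with both transcripts, all from NeuN+ plates, averaged 28.7 TPM with 24.3% detection. Nuclei with neither transcript, 29% of the GABAergic nuclei, averaged 120 TPM with 40.4%.

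Detection of Atp1b2 was graded along Ecel1 and went down along Spp1, where the intervals of the bins above 0 overlap. With Spp1 at 0 it was found in 54.4% of nuclei (95% exact binomial interval 49.9 to 58.8%), with Spp1 above 0 and under 100 TPM in 25% of 16 (7.27 to 52.4%), at 100 to 1000 TPM in 18.3% of 93 (11.02 to 27.6%), and at 1000 TPM and above in 9.14% (5.51 to 14.1%). Along Ecel1 it was found in 24.8% of nuclei at 0 (21.1 to 28.8%), in 38.6% of 57 under 100 TPM (25.996 to 52.4%), in 62.4% at 100 to 1000 TPM (55.1 to 69.4%), and in 80% of 60 at 1000 TPM and above (67.7 to 89.2%). The mean Atp1b2 level in the same Ecel1 bins was 67.1, 64.6, 133.4 and 238.6 TPM. Atp1b1 was detected in over 99% of nuclei in each bin, and Atp1b3 in 63.3 to 88.2%. Within plates, the Spearman correlation of Atp1b2 with Spp1 had a median of -0.42 over 13 plates (-0.58 to -0.20), and with Ecel1 a median of 0.42 (0.18 to 0.59). These are descriptions over nuclei that share plates and depth.

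**Figure D4:**
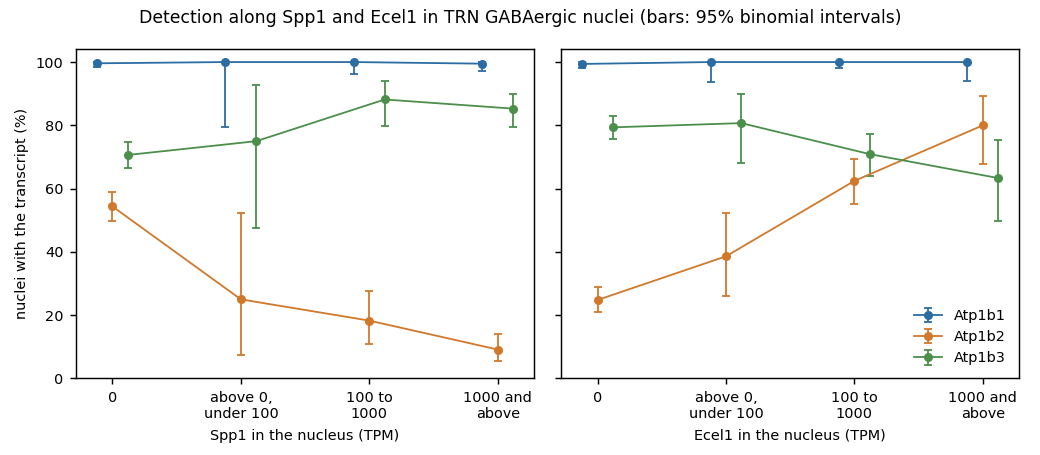
Percent of TRN GABAergic nuclei with Atp1b1, Atp1b2 or Atp1b3 (vertical axis) by Spp1 level (left) and Ecel1 level (right) in TPM, with 95% exact binomial intervals as bars. Atp1b2 goes down across the Spp1 bins, with 54.4% at 0 and 9.14% at 1000 TPM and above, and up across the Ecel1 bins, with 24.8% at 0 and 80% at 1000 TPM and above.

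Depth and neighbouring cell types were set beside this contrast. Spp1-only nuclei had more detected genes, with a median of 5265, than Ecel1-only nuclei, with 4580, while Atp1b2 was detected less often in them. Among nuclei with 3500 to 5000 detected genes Atp1b2 was found in 12.1% of Spp1-only and 66.04% of Ecel1-only nuclei, and among those with 5000 to 6500 in 7.75% of Spp1-only and 73.1% of Ecel1-only nuclei. The smallest of these 4 sets held 67 nuclei. With 1500 to 3500 detected genes it was found in 5.26% of 19 Spp1-only and 52.6% of 38 Ecel1-only nuclei. With 6500 and above it was found in 41.2% of 17 Spp1-only and in all 5 Ecel1-only nuclei, at means of 121.99 TPM in Spp1-only and 145.6 TPM in Ecel1-only nuclei, so the means lay close in the deepest nuclei. The 8 astrocyte markers, all found in both sets, summed to a mean of 634.9 TPM in Spp1-only nuclei (plates 455.07 to 1192.5) and 467.01 TPM in Ecel1-only nuclei (143.3 to 1026.7). Over all TRN GABAergic nuclei most of this sum came from Aldoc, as given above. In nuclei where 6 glial transcripts were at 0 the Atp1b2 log2 ratio was -4.26.

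The GABAergic nuclei fell into 5 clusters, and Atp1b2 varied among them. It averaged 6.20 TPM with 6.70% detection in a cluster that made up 22.1% of the GABAergic nuclei, of which 70.9% had Spp1, and 115.95 TPM with 56.8% in a cluster that made up 24.6% of them, of which 62.8% had Ecel1. A cluster with 15.4% of the nuclei had the most, 262.7 TPM with 83.2% detection. That cluster was the lowest in Six3, a transcription factor gene found in 23.2% of its nuclei, and in the calcium-binding protein gene Pvalb, found in 19.2%, against 72.3 to 97.6% for these genes in the other clusters. Without it, Atp1b2 averaged 64.5 TPM in the remaining GABAergic nuclei, 18.97 TPM in Spp1-only nuclei and 121.5 TPM in Ecel1-only nuclei, with detection in 9.20% of the Spp1-only and 60.8% of the Ecel1-only nuclei. The bins kept their direction without it, with 45.8% at Spp1 of 0 and 8.21% at 1000 TPM and above, and with 15.7% at Ecel1 of 0 and 71.8% at 1000 TPM and above. Since the pump genes took part in the clustering, cluster values are descriptions.

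The patched TRN cells gave the same contrast in a separate table. Atp1b2 averaged 19.4 TPM in 32 Spp1-only cells, with 40.6% detection (23.7 to 59.4%), and 118.1 TPM in 26 Ecel1-only cells, with 80.8% (60.6 to 93.4%). By name batch it was 17.4 TPM in 14 Spp1-only and 126.4 TPM in 8 Ecel1-only cells of 1 batch. Among the left-over cells with unlike names it was 6.72 TPM in 14 Spp1-only and 120 TPM in 17 Ecel1-only cells. The smallest batch went the other way, with 70.8 TPM in 4 Spp1-only cells and 14.4 TPM in its 1 Ecel1-only cell. Atp1b1 averaged 2211 TPM in Spp1-only and 1954 TPM in Ecel1-only cells, and Atp1b3 188.96 TPM in Spp1-only and 217.6 TPM in Ecel1-only cells. These cells also held glial transcripts. In Spp1-only cells the marker sums averaged 3672.5 TPM for oligodendrocytes, 646.1 TPM for astrocytes and 468.4 TPM for microglia. In Ecel1-only cells they were 2366.2, 339.1 and 483.4 TPM in that order. Their part in the contrast was not tested.

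Over all 95 Patch-seq cells, Atp1b1 averaged 2004 TPM (batches 1321 to 2319), Atp1b2 76.9 TPM (44.99 to 101.9) and Atp1b3 190 TPM (70.6 to 211.4). The GABAergic NeuN+ nuclei averaged 4272 TPM (plates 3502 to 5350), 89.7 TPM (46.5 to 124.8) and 304.7 TPM (265.6 to 332.3) for the same genes. The log2 ratios of Patch-seq over NeuN+ were -1.09 ± 0.45 for Atp1b1, -0.22 ± 0.78 for Atp1b2 and -0.68 ± 0.86 for Atp1b3 (SD over plates and batches). Of the 3 genes 1 was counted as lower and none as higher, where 29% of 15785 genes were lower and 10.5% higher, with a median log2 ratio of -0.57 over all genes. The balance differed little: Atp1b1 made up 88.3% of the sum in Patch-seq cells and 91.5% in NeuN+ nuclei. The 2 tables were normalized separately, and a patched cell against a sorted nucleus cannot be told apart from the table. The 8 oligodendrocyte markers summed to 5218 TPM in Patch-seq cells (batches 4482 to 6331) and 614.9 TPM in NeuN+ nuclei (393.6 to 995.4). The sum of 6 microglial markers averaged 897.6 TPM in Patch-seq cells (814.1 to 1082.3), with a median of 38.6 TPM over cells. In NeuN+ nuclei it averaged 6.36 TPM (1.21 to 17.8). The part of such transcripts in the ratios was not tested. The Atp1b1 call rested on the settings. The log2 ratio was -0.99 without the 54 cells with unlike names, -0.97 among samples with at least 3000 detected genes and -0.79 without rescaling of the TRN table.

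Levels differed little between the NeuN+ and the unselected plates. In GABAergic nuclei Atp1b1 averaged 4272 TPM on NeuN+ plates and 3804 TPM on unselected plates (1934 to 4835, 13 plates), a log2 ratio of 0.17 ± 0.48 (SD over plates). The log2 ratio was -0.28 ± 0.94 for Atp1b2 and 0.11 ± 0.40 for Atp1b3, and Atp1b2 was detected in 38.7% of NeuN+ and 38.5% of unselected nuclei. The cluster lowest in Six3 held 19.3% of the NeuN+ and 5.31% of the unselected GABAergic nuclei. Without it Atp1b2 averaged 50.96 TPM in NeuN+ and 94.4 TPM in unselected nuclei (log2 ratio -0.88), with detection in 28.03% of NeuN+ and 35.98% of unselected nuclei. The names of all NeuN+ plates begin alike and those of the unselected plates begin otherwise, so the sort and the series of plates cannot be told apart. Within the unselected plates Atp1b1 itself ran from 1934 to 2841 TPM on the 4 plates of 1 such series, and from 3164 to 4835 TPM on the others. None of the 3 was counted, where 9.6% of 15119 genes were higher and 5.44% lower.

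Outside the TRN, GABAergic nuclei had less Atp1b2. Of the 47 GABAergic nuclei from adjacent tissue, 46 lay on 3 plates whose names carry the globus pallidus. Atp1b2 was at 30.7, 0 and 41.6 TPM on these plates, found in 2 of 12, 0 of 13 and 6 of 21 nuclei, and at 26.4 TPM over all 47. In the TRN it averaged 95.1 TPM (plates 23.9 to 255.2, 21 plates). The adjacent range overlaps the lower end of the TRN range. The log2 ratio of adjacent over TRN was -1.81 ± 3.09 (SD over plates), -2.66 without the adjacent plate at 41.6 TPM, and -1.03 without the cluster lowest in Six3. When classes were taken from markers in each nucleus instead of clusters, 69 adjacent nuclei counted as GABAergic and the ratio turned to 0.29. Atp1b1 averaged 3296 TPM in adjacent nuclei (3117 to 3537) and 4142 TPM in TRN nuclei (log2 ratio -0.33 ± 0.40, SD), and Atp1b3 averaged 410 TPM in adjacent GABAergic nuclei, against 298.5 TPM in those of the TRN (log2 ratio 0.46 ± 0.37, SD). Of the 3 genes 1 was lower and none higher, where 19.7% of 14843 genes were lower and 7.59% higher. Glia of the adjacent tissue had the same leading subunits: Atp1b2 averaged 2998 TPM in 43 adjacent astrocytes (plates 2474 to 3149) and 4672 TPM in TRN astrocytes, without overlap of the plate ranges, and Atp1b3 averaged 787.7 TPM in 94 adjacent oligodendrocytes (581.2 to 1237.4) and 1029.7 TPM in TRN oligodendrocytes, with overlap. The 27 adjacent thalamic glutamatergic nuclei had 2159 TPM of Atp1b1, 184.3 TPM of Atp1b2 and 297.2 TPM of Atp1b3.

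GABAergic nuclei of the TRN had more Atp1b1 than those sorted on GFP from 4 other regions. The TRN mean was 4142 TPM (plates 1934 to 5350). Hippocampal GABAergic nuclei averaged 2036 TPM (1420 to 3248, 22.3% of its GFP+ nuclei), those of M2 cortex 1804 TPM (790.7 to 2620, 60.7% of its GFP+ nuclei), those of somatosensory cortex 858.2 TPM (763.3 and 950 on 2 plates, 80.5% of its GFP+ nuclei) and those of striatum 974.9 TPM (14 nuclei, 1 plate). The TRN range overlaps that of hippocampus and of M2 cortex and lies above the plates of somatosensory cortex and striatum. Against the mean of the 4 regions, 1418 TPM, the log2 ratio was 1.55 ± 0.80 (SD over plates). The SDs of this comparison pool the plates of the 4 regions, so they also hold differences between regions. Atp1b2 averaged 95.1 TPM in the TRN with 38.6% detection, against 22.96 TPM (25.5%) in hippocampus, 29.3 TPM (12.7%) in M2 cortex and 30.8 TPM (9.17%) in somatosensory cortex. It was listed at 0 in all 14 striatal nuclei, which allows a share of up to 21.4% of nuclei. The log2 ratio against the mean of the 4 regions, 20.8 TPM, was 2.14 ± 1.74 (SD), and 1.74 without the striatal plate. Atp1b3 did not follow: it averaged 298.5 TPM in the TRN, against 268.3 TPM in hippocampus, 296.6 TPM in M2 cortex, 439.4 TPM in somatosensory cortex and 318.06 TPM in striatum (log2 ratio -0.15 ± 0.56, SD).

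Of the 3 genes 2 were higher and none lower in the TRN, where 10.2% of 15997 genes were higher and 16.8% lower. The TRN and the GFP-sorted nuclei come from tables normalized separately, and region, sort and table cannot be told apart in this comparison. The balance of the regions differed through Atp1b1 and Atp1b3: Atp1b1 made up 91.3% of the sum in the TRN, 87.5% in hippocampus, 84.7% in M2 cortex, 75.4% in striatum and 64.6% in somatosensory cortex, where Atp1b3 reached 33.1%. It also differed within M2 cortex. Atp1b1 and Atp1b3 averaged 2620 and 239.3 TPM on 1 plate, 1360 and 234.5 TPM on another, and 790.7 and 540.6 TPM on the last. Somatosensory and striatal plates are named otherwise than hippocampal plates, so region and plate series cannot be told apart there. The sort label and the markers parted in places, since 50.7% of the GFP+ nuclei of hippocampus and 27.4% of those of M2 cortex were glutamatergic by their clusters. Those hippocampal glutamatergic nuclei had 1828 TPM of Atp1b1, 135.1 TPM of Atp1b2 with 56.5% detection and 117.98 TPM of Atp1b3, beside 2036, 22.96 and 268.3 TPM in the hippocampal GABAergic nuclei for the same genes in that order. The 28 glutamatergic nuclei of the hippocampal plate without a sort label were close to them, with 2066, 154.4 and 120 TPM. Cortical glutamatergic nuclei were lower, with 507.9 TPM of Atp1b1 and 37.4 TPM of Atp1b2 in M2 cortex and 544.5 and 71.8 TPM in somatosensory cortex. Striatal projection neuron-like nuclei had 1695 TPM of Atp1b1 and 65.8 TPM of Atp1b3 in adjacent tissue (18 nuclei) and 857.2 and 60.1 TPM in the striatum (18 nuclei).

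**Figure D5:**
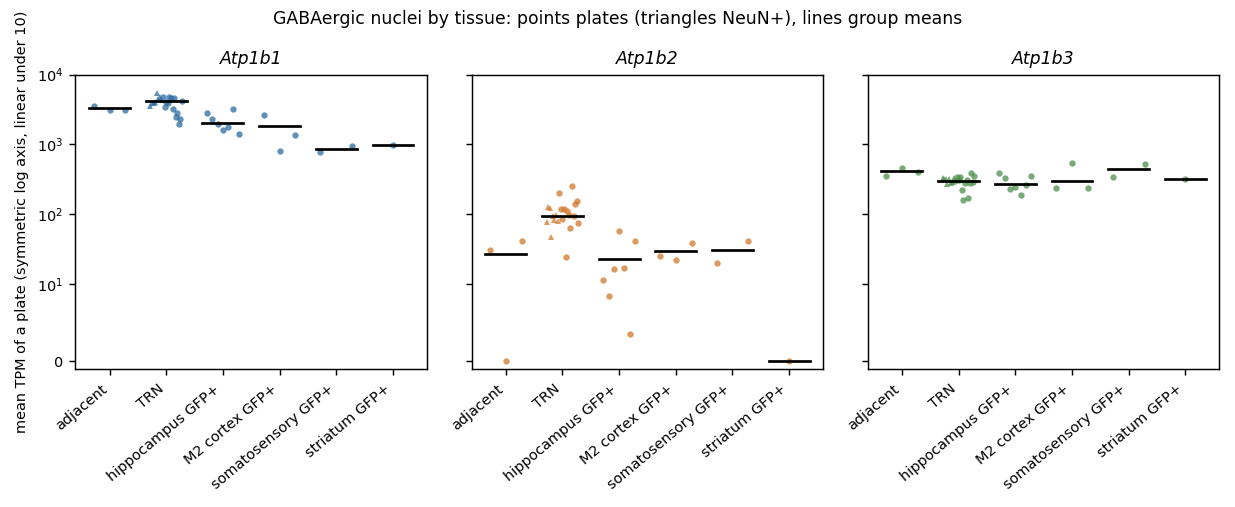
Mean TPM of each gene per plate (points, symmetric log axis, linear under 10) in GABAergic nuclei of adjacent tissue, TRN and 4 GFP-sorted regions, with lines for the mean over nuclei. Atp1b1 and Atp1b2 have their highest lines in the TRN, at 4142 and 95.1 TPM, and Atp1b3 has its highest in somatosensory cortex, at 439.4 TPM.

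Over 21 combinations of class and group, the order of levels differed for each gene. Atp1b1 was highest in GABAergic nuclei of NeuN+ plates and lowest in adjacent oligodendrocytes, and 15 of 20 neighbouring pairs in that order overlapped in their plate ranges. The 3 TRN and adjacent GABAergic combinations came first, with 4272, 3804 and 3296 TPM, and the last of them did not overlap the next, glutamatergic nuclei of NeuN+ plates at 2729 TPM. Atp1b2 was highest in TRN astrocytes, then in adjacent astrocytes, then in the thalamic glutamatergic nuclei, with 16 of 20 neighbouring pairs overlapping. Atp1b3 was highest in TRN and adjacent oligodendrocytes, and below them 18 of the 18 remaining neighbouring pairs, down to adjacent astrocytes at 58.6 TPM, overlapped. The genes whose levels were most like each member over 18 combinations with at least 20 nuclei, by Pearson correlation of log2(mean TPM + 1) among 19767 genes, were Sod2 (r = 0.97), AI593442 (0.96), Nsg1 (0.96), Gng2 (0.96) and Prune2 (0.95) for Atp1b1. For Atp1b2 they were Igdcc3 (0.92), Myo10 (0.91), Als2cl (0.90), Ddo (0.90) and Cpne2 (0.89), and for Atp1b3 Pacs2 (0.93), Iars (0.89), Lgi3 (0.88), Agap1 (0.87) and Pigz (0.87). Between the members r was -0.16 for Atp1b1 with Atp1b2, -0.01 for Atp1b1 with Atp1b3 and -0.67 for Atp1b2 with Atp1b3. The combinations share plates and tables, so these values are descriptions.

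Other genes tied to the pump were read by symbol. The fourth beta-like gene, Atp1b4, stayed under 1 TPM in glutamatergic nuclei (0), astrocytes (0) and GABAergic nuclei of both sorts (0.480 TPM). In oligodendrocytes it averaged 2.21 TPM with detection in 0.676% of nuclei. GABAergic nuclei of the unselected plates had 0.633 TPM and 0.885%. FXYD proteins are small regulatory subunits of the pump. In astrocytes, 1 of 4 measured FXYD genes was higher than in GABAergic nuclei and 3 were lower, where 21.2% of all genes were higher and 40.5% lower. Fxyd1, which encodes phospholemman, averaged 344.1 TPM in astrocytes with 62.5% detection and was listed at 0 in GABAergic nuclei of the unselected plates. In glutamatergic nuclei 1 of 5 was higher and 1 lower (all genes, 11.4% and 12.3%), with Fxyd7, which encodes a brain FXYD protein, at 49.6 TPM in glutamatergic and 7.40 TPM in GABAergic nuclei (log2 ratio 2.59), and Fxyd6 listed at 0 in glutamatergic nuclei against 88.8 TPM in GABAergic nuclei. In oligodendrocytes none of 3 was higher and 2 were lower (all genes, 17.7% and 37.5%). Between Spp1-only and Ecel1-only nuclei none of 5 was higher and 2 were lower (all genes, 7.74% and 11%). Fxyd6, which encodes phosphohippolin, averaged 2.50 TPM in Spp1-only nuclei with 1.12% detection and 171.98 TPM in Ecel1-only nuclei with 28.6% (log2 ratio -5.63), and Fxyd7 averaged 1.20 TPM in Spp1-only and 7.28 TPM in Ecel1-only nuclei (-1.91). The median log2 ratio of the 5 FXYD genes was -0.84, against 0.02 over all genes.

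Nkain genes encode membrane proteins that bind the beta subunit. Nkain4 averaged 1690 TPM in astrocytes with 65% detection and 12.4 TPM in GABAergic nuclei with 3.10% (log2 ratio 6.97), beside the lead of Atp1b2 in that class. The other members did not share this: Nkain1 (log2 ratio -2.62) and Nkain2 (-1.06) were counted as lower in astrocytes, and Nkain3 (-0.82) was not counted. In oligodendrocytes Nkain2 averaged 125.3 TPM, against 1.67 TPM in GABAergic nuclei (5.57), and Nkain1 averaged 112.06 TPM, against 6.30 TPM (3.95), while Nkain3 and Nkain4 were lower. In glutamatergic nuclei 3 of 4 were higher and 1 lower than in GABAergic nuclei, and in Spp1-only nuclei none was higher and 3 were lower than in Ecel1-only nuclei. The other lists are counted beside the same shares over all genes, which for higher and lower were 21.2% and 40.5% in astrocytes, 17.7% and 37.5% in oligodendrocytes, 11.4% and 12.3% in glutamatergic nuclei, and 7.74% and 11% in Spp1-only nuclei. With lists of 4 to 9 genes, counts near these shares are no result about a list. Of 7 genes for calcium pumps, none was higher and 4 were lower in astrocytes, none was higher and 6 were lower in oligodendrocytes, and 4 were higher and 1 lower in glutamatergic nuclei, each against GABAergic nuclei. In Spp1-only against Ecel1-only nuclei 1 calcium pump gene was higher and 2 lower. Of the sodium-calcium exchanger genes, 2 of 8 were higher and 5 lower in astrocytes, 2 of 9 higher and 6 lower in oligodendrocytes, 2 of 8 higher and 1 lower in glutamatergic nuclei, and none of 9 higher and 2 lower in Spp1-only nuclei. Of the cation-chloride cotransporter genes, 1 of 8 was higher and 5 lower in astrocytes, 3 of 8 higher and 3 lower in oligodendrocytes, 2 of 8 higher and 2 lower in glutamatergic nuclei, and 1 of 9 higher and 1 lower in Spp1-only nuclei. In the TRN against the GFP-sorted regions, 1 of 5 FXYD genes, 1 of 4 Nkain genes and 3 of 7 calcium pump genes were higher, and none, 1 and none of them lower, where 10.2% of all genes were higher and 16.8% lower.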

How the data were processed

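Nuclei and patched cells of mouse brain were profiled by Smart-seq2. The TRN table was deposited as natural log values of TPM + 1, which were put back to TPM and rescaled to the same total in every nucleus (factors 0.288 to 6.03, median 0.777). The authors deposited the other nuclei and the Patch-seq cells as TPM tables, normalized separately. The submitters' processing notes name RSEM, Bowtie, TopHat2 2.0.10, Seurat 2.2.0 and the mm10 build, with no role or order. No column was left unused or unmatched.

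Each table of nuclei was clustered with scanpy 1.11.5 and igraph 0.11.9 (Leiden) on 2000 variable genes, 30 principal components and 15 neighbours, and clusters were named from marker lists. Doublets were not called. Tables were read with pandas 2.3.3 and numpy 2.4.6 in Python 3.11.15, intervals and correlations came from scipy 1.17.1, and matplotlib 3.10.9 drew the figures, with scikit-learn 1.9.0 behind the clustering. Values are means over nuclei. Ratios are log2 of (mean TPM + 1) over (mean TPM + 1), counted as changed at 1 or -1 among genes with a mean of at least 1 TPM on either side. This scale understates the change of low genes. The ratio step was checked on simulated data. Intervals are exact Clopper-Pearson intervals at 95%, and a count of 0 allows 3 counts. The design had foreseen TPM throughout, and the log scale of the TRN table was found in the values. Named genes were the 3 members, symbols starting with Atp1b, Fxyd and Nkain, lists of other ion transport genes, and the 5 genes most like each member. Members and lists were chosen with earlier results of these data known. Genes of the catalytic subunits are not reported here.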

Additional observations from a re-analysis of the deposited data

Results flagged for a closer look

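In oligodendrocytes of tissue adjacent to the TRN, Atp1b2 averaged 0.50 TPM over 7 nuclei on 1 of 4 plates, while the other plates lay between 12.03 and 18.7 TPM. Its gap to the nearest plate was 0.839 of the whole range, past the critical value for 4 values. Of 33 sets of plate means checked in this way this was the single one, and chance marks about 1 in 20. Atp1b2 was found in 1 of 7 nuclei on the flagged plate, and in 1 of 15, 1 of 42 and 3 of 30 on the others. Each mean thus rests on few nuclei, and the flagged plate did not have the lowest detected share. The other plates are those whose names carry the globus pallidus.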

How the results depend on the processing

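The alternatives were other pseudocounts, logs averaged per nucleus, plate means, no rescaling, a minimum of 3000 detected genes, other clusterings, classes from markers in each nucleus, nuclei without glial transcripts, and leaving out each plate in turn. Leaving out the cluster lowest in Six3, splitting by sort and leaving out Patch-seq cells with microglial transcripts were chosen after seeing the data. Of the alternative log2 ratios of the 3 genes, 95.7% stayed within 1 SD over plates with no change of sign where the gene was counted as changed, 13 moved further and 2 reversed. This is a loose measure, since the SDs reached 3.40. Atp1b2 in Spp1-only over Ecel1-only nuclei stayed within it while running from -4.26 to -2.16. For Atp1b1 in Patch-seq, 12 of 13 alternatives stayed within it, but 10 of 13 kept the call. With logs averaged per nucleus, which weighs detection more, the difference was 3.79 for Atp1b2 in glutamatergic nuclei, -9.64 for Atp1b1 and 9.15 for Atp1b2 in astrocytes, -9.69 for Atp1b1 and 1.12 for Atp1b3 in oligodendrocytes, 1.49 for Atp1b3 in Spp1-only nuclei, 0.83 for Atp1b3 by NeuN sort, 0.62 for Atp1b3 in the TRN over GFP-sorted nuclei and -1.58 for Atp1b1 in Patch-seq. With at least 3000 detected genes, 1 astrocyte and 7 oligodendrocytes were left, and Atp1b3 stood at -8.15 in the astrocyte, Atp1b2 reversed to 0.95 and Atp1b3 stood at 1.14 in oligodendrocytes. In adjacent over TRN nuclei, Atp1b2 reversed to 0.29 and Atp1b3 stood at -0.018 with classes from markers in each nucleus, and Atp1b3 stood at 0.015 at a clustering resolution of 0.5. For the last 3 values the cause was not tested. Clustering without Atp1 and Fxyd genes changed no call.

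As medians of the share in each nucleus, Atp1b1 was at 0% and Atp1b3 at 100% in oligodendrocytes, and Atp1b2 at 0% in GABAergic nuclei. With a minimum mean of 10 TPM in place of 1 fewer genes were counted as changed. As a percent of the count at 1 TPM this left 61.002 of 1736 higher and 49.8 of 1874 lower in glutamatergic nuclei, 65.2 of 2693 higher in oligodendrocytes, 48.2 higher and 39.9 of 1648 lower in Spp1-only nuclei, 33.1 of 1451 higher and 28.2 lower by NeuN sort, 62.6 higher and 39.4 of 2919 lower in adjacent nuclei, 61.3 of 1627 higher and 51.002 of 2694 lower in the TRN over GFP-sorted nuclei, and 34.7 of 1660 higher in Patch-seq. No paired analysis was possible because replicate numbers only name single nuclei and no result comes from a test. Classes that share plates are compared within plates in the text. Depth limits the shares of low transcripts, and read totals are unknown.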

Other observations

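In the GFP-sorted table a cluster of 89 nuclei had Atp1b2 as its leading subunit, at 776.5 TPM (plate means 366.2 to 1732, 7 plates) with 91.01% detection, beside 293.2 TPM of Atp1b1 and 205.3 TPM of Atp1b3. It was left unnamed, with 5 astrocyte and 4 ependymal markers, and its leading genes included Tmem212 and Pifo. At a clustering resolution of 2 the table held a cluster of 36 nuclei named astrocyte and an unnamed one of 53 nuclei with 5 astrocyte and 5 ependymal markers.

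Among the patched cells, the 14 with both Spp1 and Ecel1 averaged 20.6 TPM of Atp1b2, and the 23 with neither averaged 144.5 TPM.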
